A study of Homo sapiens with 2 samples.

Results

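Interferon-stimulated genes are the genes that cells switch on when interferons bind their receptors, and 45 of them, taken as a fixed list, are described here in HEC1A cells, an established human endometrial adenocarcinoma line. Members were chosen by name, through the probe sets whose platform annotation gives exactly 1 gene symbol equal to a listed gene, and where a gene had several such probe sets, the one brightest on average is reported and the others are set beside it. All 45 were measured, of 19775 genes on the array. The list was chosen with earlier results of these data known, so its counts beside those of all genes are descriptions and not a test. The series holds 2 arrays, 1 of cells labelled EMP2 overexpression and 1 of cells labelled EMP2 knockdown, the latter carrying a short hairpin RNA vector. EMP2 is epithelial membrane protein 2, a tetraspan protein. Both groups were grown in McCoy's medium with serum and were otherwise untreated, so neither was given interferon. The labels name no promoter for the EMP2 vector, no unmodified or vector control, and do not say whether either line is a single clone.

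Type I interferons signal through IFNAR1 and IFNAR2, and type II interferon through IFNGR1 and IFNGR2, to JAK kinases and STAT proteins. A complex of STAT proteins with IRF9 then binds the interferon-stimulated response element (ISRE) in promoters, while STAT dimers bind the gamma-activated site (GAS). The induced proteins sense foreign RNA and DNA, degrade or sequester it, block translation and membrane fusion, conjugate the ubiquitin-like protein ISG15, and feed back on the pathway. Epithelial cells also hold a basal level of many of these transcripts.

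Each value is a log2 signal. A positive difference means a higher signal in the overexpressing cells, and differences are on the log2 scale. There was 1 array per group, so no difference has a replicate check, an error or a p-value, and the number of arrays limits the precision. The brightest EMP2 probe set gave 12.25 in the overexpressing cells and 9.51 in the knockdown cells, and the other 3 differed by 0.39, 0.23 and 0.00. Those at 0.39 and 0.23 read 10.05 and 9.43 in the knockdown cells. The one at 0.00 read 5.93 on both arrays, close to the background level given below. Thus 1 of 4 EMP2 probe sets was at least 1.5-fold higher. Array hybridization controls (18 probe sets) differed by at most 0.10. Transcripts of Bacillus subtilis, absent from human cells, served as a background level, and their 27 probe sets reached at most 5.85. Of 14 endometrial epithelium markers measured, 11 were above the controls, with PAX8 at 11.26 and 11.33 and EPCAM at 13.13 and 13.12, and MUC16, PGR and EMX2 were not. CDH1 was higher by 1.08 in overexpression, while KRT8 and KRT19 differed by -0.77 and -0.97. Among 10 markers of fibroblasts, 5 did not exceed the controls, THY1 was higher by 0.70, and the list's summed linear signal was 869 in overexpression and 798 in knockdown. The part of these markers in the results was not tested. Of 9 leukocyte markers, 5 were not above the bacterial controls, PTPRC read 3.72 and 3.68, and the list's summed linear signal was 418 in overexpression and 426 in knockdown. Of 5 plasmacytoid dendritic cell markers, 3 were not above the controls, with CLEC4C at 3.47 on both arrays and summed signals of 214 and 197. In bulk RNA, fewer cells with a transcript and less of it per cell cannot be told apart.

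More of the interferon-stimulated genes were higher in the EMP2-overexpressing cells than lower. In all, 11 of 45 were at least 1.5-fold higher (0.58 on the log2 scale), where 3.4% of all genes were, and 2 of 45 were at least 1.5-fold lower, where 2.89% of all genes were. At 2-fold, 5 members were higher and 0 lower, against 1.1% and 1.06% of all genes. For HERC5 and IFI44L, counted at both thresholds, the knockdown value was under the bacterial controls described above, and 3 members with both values above them were 2-fold higher. The members' median difference was 0.19, and that of all genes 0.00. With each gene's probe sets averaged the members' median was 0.09. On the second brightest probe set, which 24 members have, it was 0.00, with 45.8% of members and 43.9% of all genes above 0. A difference above 0 was found in 31 members (68.9%), below 0 in 9 and of exactly 0 in 5, while 42.6% of all genes were above 0. Both values exceeded the bacterial controls in 35 members, 1 value did in 3, and neither in 7. Among those 35, 9 were at least 1.5-fold higher and 2 lower, against 4.16% and 3.31% of the 13285 genes that met the same condition, and their median was 0.25.

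**Figure D1:**
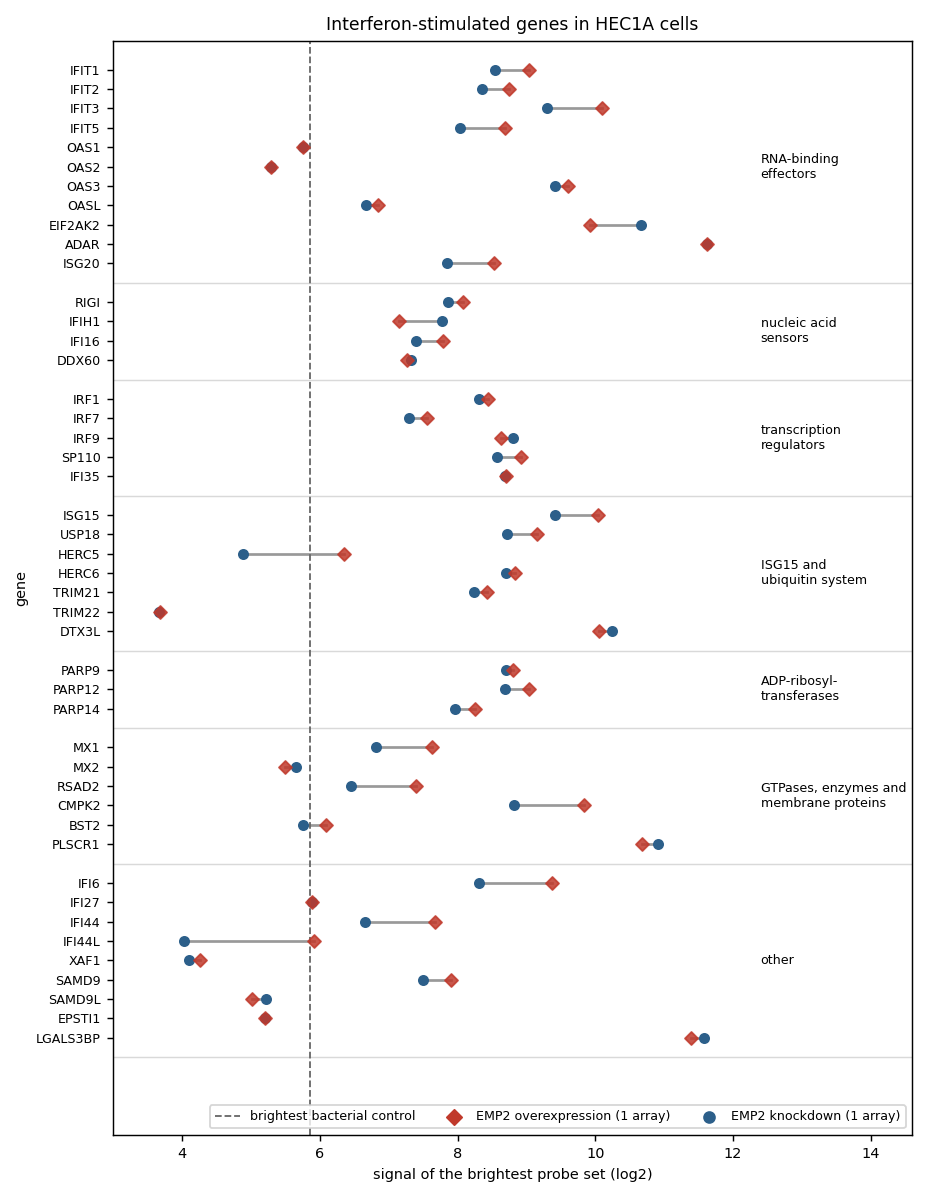
Signal of the brightest probe set (horizontal axis, log2) of each of the 45 genes, grouped by role, with a red diamond for EMP2 overexpression and a blue circle for EMP2 knockdown, 1 array each. The dashed line marks the brightest bacterial control, 5.85, and in 31 genes the red diamond lies to the right of the blue circle.

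**Figure D2:**
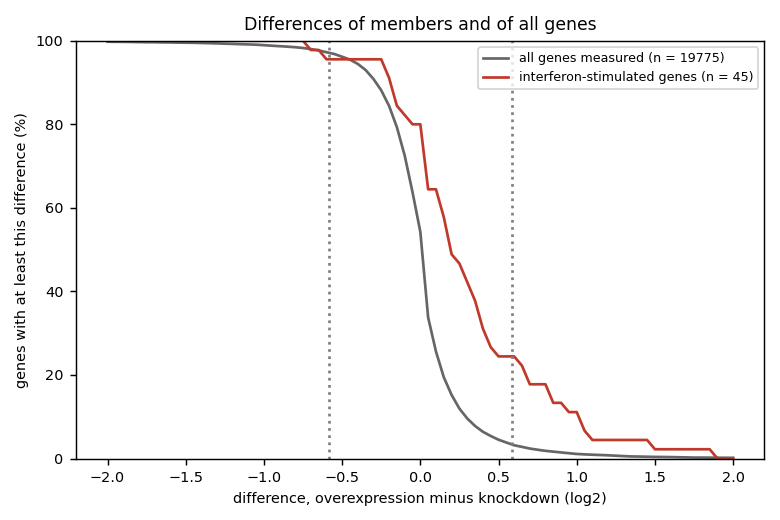
Percent of genes (vertical axis) whose log2 difference, overexpression minus knockdown, is at least the value on the horizontal axis, for the 45 members in red and all 19775 genes in grey. Dotted lines mark 1.5-fold in each direction, and the red line lies above the grey one at each value from 0 to 1.85.

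The letters of the ISRE core were searched in the promoters of the members, because this element is what the family is known to share. RefSeq promoter windows (GRCh38.p14) were found for 38 of the 45 members, 12 of which have several annotated starts. The motif GAAANNGAAA was searched on both strands, as TTTCNNTTTC on the other, in the 250 bases before each start. It occurred in at least 1 window of 23 of the 38 members (60.5%) and of 3.71% of all 27305 genes with a window. Of the 11 members at least 1.5-fold higher, 10 held a match, of the 2 lower ones 1 did, and of the other 25 with a window 12 did. The members without a window, IFIT2, OAS2, OASL, IRF7, USP18, TRIM22 and MX2, were all under 1.5-fold in either direction. They could not be searched, so these shares rest on uneven coverage of the groups. The members with a match had a median difference of 0.41, with 17 of 23 above 0, and those without had a median of 0.13, with 9 of 15 above 0. Among the 25 members in neither direction the medians were 0.15 with a match and 0.13 without. Over all measured genes with a window both medians were 0.00. Of those with a match 210 of 522 were above 0, and of those without 6409 of 14862. Whether the motif goes with the difference was not tested. The GAS core TTCNNNGAA, which reads the same on both strands, occurred in 11 of the 38 members and 8.09% of all genes. Among the 11 higher members, MX1 alone held a GAS match, against 10 of the 25 members in neither direction. A match describes letters and is not a measured binding site.

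The promoters shown are those of the 6 members that were higher, with both values above the controls, and matched before their first listed start. IFIH1, which was lower, and IFI27, whose values were equal, are set beside them. Capitals mark the ISRE core on either strand, with 30 bases on each side where the window allows. The stretches lie on GRCh38.p14 at chr1:27672246-27672378 (IFI6, minus strand), chr1:78649741-78649788 (IFI44, plus), chr10:89327811-89327914 (IFIT3, plus) and chr10:89414493-89414567 (IFIT5, plus). Those of the others are chr15:88638917-88638986 (ISG20, plus), chr1:1013354-1013429 (ISG15, plus), chr2:162318685-162318873 (IFIH1, minus) and chr14:94110598-94110680 (IFI27, plus). Each is upstream of the gene and written in its direction of transcription.
IFI6: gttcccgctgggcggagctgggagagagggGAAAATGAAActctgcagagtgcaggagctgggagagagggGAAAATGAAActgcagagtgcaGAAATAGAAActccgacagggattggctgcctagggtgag
IFI44: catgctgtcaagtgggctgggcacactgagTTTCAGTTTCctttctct
IFIT3: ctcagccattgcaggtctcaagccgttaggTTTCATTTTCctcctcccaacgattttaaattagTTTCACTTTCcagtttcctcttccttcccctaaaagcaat
IFIT5: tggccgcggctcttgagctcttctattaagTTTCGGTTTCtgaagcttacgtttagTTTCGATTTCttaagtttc
ISG20: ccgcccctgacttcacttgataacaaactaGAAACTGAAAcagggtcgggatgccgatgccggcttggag
ISG15: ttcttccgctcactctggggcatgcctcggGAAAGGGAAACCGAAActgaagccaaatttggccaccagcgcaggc
IFIH1: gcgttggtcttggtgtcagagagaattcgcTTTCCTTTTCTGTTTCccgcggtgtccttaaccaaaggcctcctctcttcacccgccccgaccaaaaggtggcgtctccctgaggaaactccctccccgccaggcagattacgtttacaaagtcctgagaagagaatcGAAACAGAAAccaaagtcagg
IFI27: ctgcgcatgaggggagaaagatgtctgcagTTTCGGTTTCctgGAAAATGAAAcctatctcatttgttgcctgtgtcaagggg
IFI6 held 3 matches. IFIT3, IFIT5 and IFI27 held 2 apart from each other, ISG15 held 2 that overlap, and IFIH1 held 3, of which 2 overlap. IFI6, with a difference of 1.06, and IFI27, with 0.00, thus both carry the motif. IFI27 read 5.89 on both arrays, close to the brightest bacterial control of 5.85, so a difference could hardly be read for it.

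Of the 4 IFIT genes, whose proteins bind viral RNA and restrain translation, 2 were at least 1.5-fold higher, beside 3.4% of all genes. IFIT3 read 10.10 in overexpression and 9.30 in knockdown (1.75-fold), and IFIT5 read 8.69 and 8.03 (1.58-fold). IFIT1, which recognises RNA caps that lack methylation, read 9.04 and 8.54, a difference of 0.50, and IFIT2 read 8.75 and 8.35, a difference of 0.40, both under 1.5-fold. The second probe sets of IFIT3 and IFIT5 differed by 0.49 each, in the same direction and under 1.5-fold, while that of IFIT2 differed by -0.13. The 4 genes lie next to one another. The 10 genes measured around them, some of them under the bacterial controls, had a median difference of 0.10, with none at least 1.5-fold apart.

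The other RNA-binding effectors did not share a direction. ISG20, an exonuclease that degrades viral RNA, read 8.52 and 7.85 (1.59-fold higher), and its second probe set differed by 0.67 as well. The protein kinase EIF2AK2 (PKR), which stops translation on binding double-stranded RNA, was 1.68-fold lower, at 9.92 and 10.67. Its second probe set, at 9.75 and 10.06, differed by -0.32. Of the oligoadenylate synthetases, which make the messenger that activates RNase L, OAS1 and OAS2 were not above the bacterial controls, at 5.75 and 5.29 on both arrays. OAS3 read 9.60 and 9.41, and its second probe set differed the other way, by -0.20. OASL, a catalytically inactive relative, differed by 0.17. ADAR, the adenosine deaminase that edits double-stranded RNA, read 11.63 on both arrays.

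Nucleic acid sensors were mixed. IFIH1 (MDA5), which senses long double-stranded RNA, was 1.54-fold lower, at 7.15 in overexpression and 7.77 in knockdown, and its other 2 probe sets were below the controls on both arrays. For RIGI, the sensor of RNA ends with a triphosphate, no direction can be given. Its brightest probe set differed by 0.21, at 8.08 and 7.87, and its other 2 both differed by -0.30. IFI16, a DNA sensor, differed by 0.39 (7.79 and 7.40) and by 0.49 on its second probe set. DDX60, a helicase that acts beside RIGI, read 7.26 and 7.33. None of the 4 sensors was at least 1.5-fold higher, where 3.4% of all genes were, and in a group this small none is close to that share.

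None of the 5 transcription regulators was 1.5-fold apart, where 3.4% of all genes were higher and 2.89% lower. In a group this small, none is close to those shares. IRF7, which amplifies interferon production, read 7.55 and 7.30, and IRF9, the DNA-binding partner of the STAT complex, read 8.63 and 8.80. IRF1, an activator downstream of type II interferon, differed by 0.13 on its brightest probe set and by -0.17 on its second. SP110, a nuclear body protein, was above 0 on each of its 5 probe sets, with differences of 0.13 to 0.35. IFI35, which pairs with NMI, differed by 0.01.

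In the ISG15 system, ISG15 itself was 1.54-fold higher, at 10.04 in overexpression and 9.42 in knockdown, on its single probe set. USP18, the protease that removes ISG15 and damps receptor signalling, read 9.16 and 8.72, a difference of 0.44. HERC5, the main ligase for ISG15, read 6.35 and 4.88. The difference of 1.47 rests on a knockdown value under the bacterial controls, so that only a bound of at least 1.42-fold higher can be given. Its relative HERC6 differed by 0.14, and TRIM21, a cytosolic antibody receptor and ligase, by 0.19. DTX3L, a ubiquitin ligase that works with PARP9, differed by -0.18. TRIM22 was under the controls, at 3.68 and 3.67. The ADP-ribosyltransferases PARP9, PARP12 and PARP14 were each above 0, by 0.10, 0.36 and 0.28, and none reached 1.5-fold. The second probe set of PARP9 differed by 0.00 and that of PARP14, under the controls, by -0.12.

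Among the GTPases, enzymes and membrane proteins, 3 of 6 were at least 1.5-fold higher, beside 3.4% of all genes. CMPK2, a mitochondrial nucleotide kinase, read 9.84 and 8.82 (2.04-fold). RSAD2 (viperin), an antiviral radical-SAM enzyme encoded next to CMPK2, read 7.40 and 6.46 (1.92-fold), and its second probe set differed by 1.02. MX1, a dynamin-like GTPase that traps viral nucleoproteins, read 7.63 and 6.82 (1.75-fold). Its paralog MX2 was under the controls, at 5.50 and 5.65. BST2 (tetherin), which holds budding virions at the cell surface, read 6.09 and 5.75, and only a bound of at least 1.18-fold higher can be given. PLSCR1, a membrane scramblase, differed by -0.23 and, on its second probe set, by -0.41.

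Of the remaining 9 members, IFI6 and IFI44 were at least 1.5-fold higher with both values above the controls. IFI6, a mitochondrial and endoplasmic reticulum protein that protects cells from death, read 9.37 and 8.31 (2.09-fold), a difference that 0.98% of all genes reached. IFI44 read 7.68 and 6.65 (2.03-fold), and its second probe set, under the controls, differed by 0.49. IFI44L, its neighbour, read 5.91 and 4.03. The overexpression value was close to the brightest control, and the bound was at least 1.04-fold higher. SAMD9, a restriction factor of poxviruses, differed by 0.41 on its brightest probe set and by -0.06 on its second. LGALS3BP, a secreted galectin-binding glycoprotein, read 11.39 and 11.57. IFI27, a close relative of IFI6, read 5.89 on both arrays, close to the brightest control. XAF1, SAMD9L and EPSTI1 were not above the controls.

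Probe sets of the same gene were compared where there were several. Of the 45 members, 21 had 1 probe set and 24 had more. In 9 of these 24 every probe set had the same sign. Of the 13 members at least 1.5-fold apart, 6 had a single probe set, namely ISG15, HERC5, MX1, CMPK2, IFI6 and IFI44L. In all of the other 7 every probe set had the same sign, and for ISG20 and RSAD2 every probe set was at least 1.5-fold higher. This count takes in probe sets under the bacterial controls, where a sign cannot be read. They are all but the brightest of IFIH1 and IFI44, and the dimmest of EIF2AK2. Of the 35 probe sets that were not the brightest of their gene, 19 had both values above the controls, and 12 of these had the sign of the brightest.

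**Figure D3:**
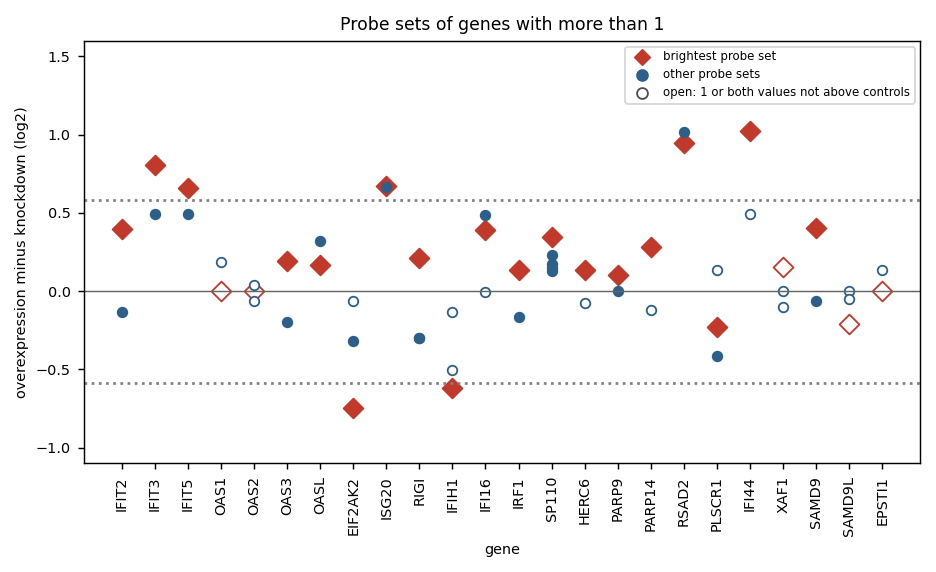
Log2 difference, overexpression minus knockdown, of every probe set of the 24 genes with more than 1, with red diamonds for the brightest and blue circles for the others, open where 1 or both values were not above the bacterial controls. Dotted lines mark 1.5-fold, and the probe sets of RSAD2 (0.94 and 1.02) and ISG20 (0.67 and 0.67) lie together while those of RIGI (0.21 and -0.30) lie on opposite sides of 0.

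The signalling pathway above these genes was measured in part. None of 9 interferon genes measured, of types I, II and III, was above the bacterial controls on either array. Of 10 receptor, kinase and STAT genes measured, 2 were at least 1.5-fold higher and 1 lower, beside 3.4% and 2.89% of all genes. IFNAR1 read 9.14 and 8.42 (1.64-fold higher, with 4 of 4 probe sets above 0 and 1 past 1.5-fold). IFNAR2 read 9.32 and 8.75, a difference of 0.57. IFNGR2 was 1.72-fold higher, at 11.58 and 10.80, while its partner IFNGR1 was 1.53-fold lower, at 9.08 and 9.69, with 2 of its 3 probe sets below 0 and 1 past 1.5-fold. IL10RB differed by 0.38, IFNLR1 by -0.02, JAK1 by -0.07, JAK2 by -0.03 and TYK2 by 0.17. IRF3, which turns on interferon genes, read 9.39 and 9.35. Of 19 sensing genes upstream of interferon, none was 1.5-fold apart on its brightest probe set, a count close to the shares of all genes. MAVS differed by -0.44, with 4 of 4 probe sets below 0 and 1 past 1.5-fold. Of 6 negative regulators, NLRX1, which restrains mitochondrial antiviral signalling, was 1.63-fold higher, with 1 of 2 probe sets past 1.5-fold. SOCS3 differed by 0.02, with 4 of 4 probe sets above 0 and 1 past 1.5-fold. PTPN2 differed by -0.31, with 5 of 7 probe sets below 0 and 1 past 1.5-fold.

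Of 43 other interferon-stimulated genes measured outside the list, 1 was at least 1.5-fold higher and 0 lower, with a median of 0.07. The higher one was TNFSF10, the death ligand TRAIL, at 10.63 and 9.36 (2.40-fold), with 3 of 3 probe sets past 1.5-fold. TRIM14 differed by 0.44, with 4 of 5 probe sets above 0 and 1 past 1.5-fold. RNF213 differed by -0.28, with 7 of 8 probe sets below 0 and 1 past 1.5-fold. Of the 43 genes, 26 (60.5%) were above 0, beside 42.6% of all genes. Of 16 MHC class I presentation genes measured, the immunoproteasome subunit PSMB9 was 1.74-fold higher, at 10.64 and 9.84, and the median was -0.02. Over the 103 pathway genes measured outside the list, 5 were higher and 1 was lower at 1.5-fold, and the median was 0.01. These counts are 4.85% and 0.97% of the 103, beside 3.4% and 2.89% of all genes. The 45 genes described above had a median of 0.19. The lists were chosen with earlier results of these data known, and the difference between them was not tested.

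**Figure D4:**
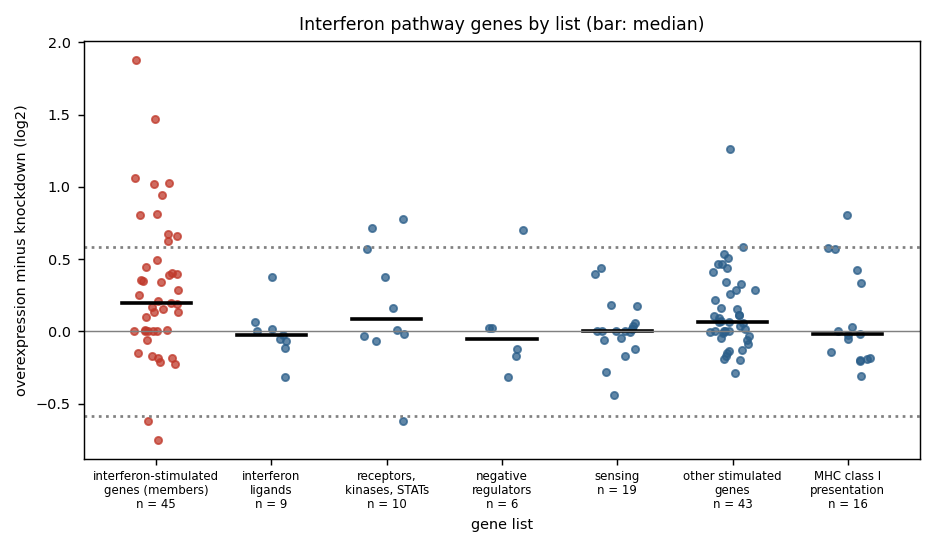
Log2 difference, overexpression minus knockdown, of each measured gene, by list, with the 45 members in red, the other pathway lists in blue, the median as a bar and 1.5-fold as dotted lines. The members' median is 0.19 and those of the other lists lie between -0.05 and 0.09.

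Genes beside the members on the chromosome were then compared. The 5 measured genes on each side of every member, members left out, made 331 different genes with a median of 0.00. Of these, 7 were at least 1.5-fold higher and 8 lower, beside 3.4% and 2.89% of all genes. They were taken at any brightness, and some were under the bacterial controls on both arrays, where a difference cannot be read. Around the 11 higher members there were 80 neighbours, and 0 were higher and 1 was lower at 1.5-fold. The 10 genes around IFIH1 had a median of -0.18, with 2 above 0 and DPP4 at -0.94. Over a wider stretch of 40 genes above the controls on each side, MX1 had neighbours with a median of 0.29, of which 63 of 80 were above 0 and 19 at least 1.5-fold higher. These took in IFNAR1 and IFNGR2. IFNAR2 and IL10RB lie on chromosome 21 too, so the 4 receptor genes with differences of 0.38 to 0.78 share it with MX1. RSAD2 and CMPK2 share a stretch of 54 neighbours with a median of 0.12. Among their 10 nearest at any brightness, of which 5 were above 0, GRASLND and RNF144A differed by 0.52 and 0.48. The 80 neighbours of EIF2AK2 had a median of 0.32, against -0.75 for EIF2AK2 itself. Without MX1, RSAD2 and CMPK2, 8 of 42 members were at least 1.5-fold higher, against 3.39% of all genes, and the median was 0.18. The part of these stretches in the differences of MX1, RSAD2 and CMPK2 was not tested.

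**Figure D5:**
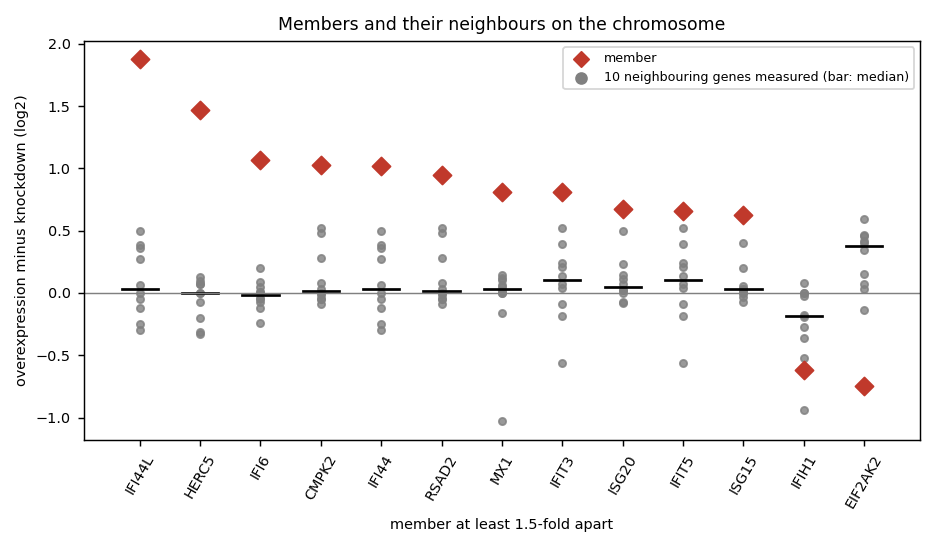
Log2 difference, overexpression minus knockdown, of the 13 members at least 1.5-fold apart (red diamonds) and of the 10 measured genes nearest to each on its chromosome (grey points, median as a bar). The grey points include genes under the bacterial controls. The medians around the 11 higher members lie between -0.02 and 0.10, and that around EIF2AK2, a lower member, is 0.37 and around IFIH1, the other, -0.18.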

How the data were processed

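The table deposited by the authors holds 1 log2 value per probe set and array for 54675 probe sets. Partek 6.6 is named in the submitters' processing notes. Background correction, normalization and summarization were not stated in the sources used here, nor was the log base, read as 2 from values of 2.01 to 14.72. The medians were 6.02 and 6.01 and sorted values differed by at most 0.05, so the arrays had been brought to a common distribution, and a shift shared by most genes would not be seen. Values were used as deposited, with no added constant and, for the main counts, no filter.

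Symbols came from the platform annotation, in which 41097 probe sets have 1 symbol, and all 45 members matched a RefSeq Entrez identifier. One probe set shared by IRF9 and another gene was left out. Where a gene's lower value did not exceed 5.85, its fold was computed against 5.85 and is a lower bound. Calls are counts past 1.5-fold, and no test was run. Named are all members, pathway genes at least 1.5-fold apart, the receptors, kinases and IRF3. MAVS, SOCS3, PTPN2, TRIM14 and RNF213 are named for their other probe sets. Listed genes without a probe set of 1 symbol are not analysed here. The members and lists were chosen with earlier results of these data known. The alternatives were other choices of probe set, brightness filter, scaling, fold threshold and neighbourhood. The script was tested on simulated data. Python 3.11.15, pandas 2.3.3 and numpy 2.4.6 were used.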

Additional observations from a re-analysis of the deposited data

How the results depend on the processing

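With 1 array per group nothing here shows how much 2 cultures of 1 line would differ. Signals near the bacterial controls limit HERC5, IFI44L, BST2 and IFI27. The count of higher members, 11, was between 8 and 11 with probe sets averaged (10), without probe sets that may match several transcripts (8 of 35), with 3 brightness filters (9 each), with values raised to the control level (9), with median centring and quantile normalization (11 each) and without MX1, RSAD2 and CMPK2 (8). Under these settings 2.52% to 4.97% of the genes measured were higher. The count of higher members was 5 at 2-fold and 19 at a difference of 0.32 or more, against 1.1% and 8.71% of all genes. The count of lower members, 2, was 0 at 2-fold, 0 on the second brightest probe set and 0 with probe sets averaged. Of all genes 1.06%, 2.46% and 1.78% were lower under these settings. With averaging, EIF2AK2 differed by -0.38 and IFIH1 by -0.42. Averaging also took IFIT5, a higher member, to 0.575, just under the threshold of 0.585. On the second brightest probe set, which only 24 members have, 2 were at least 1.5-fold higher, against 2.97% of all genes with one. There 11 members were above 0 and the median was 0.00. The cause was not tested. No member stood in a stretch of 10 neighbours that met the limit of 0.3 in the same direction, so that alternative left each count as it was. Raising values to the control level and leaving out the wider stretches were chosen after seeing the data. No paired analysis was possible because each group had 1 array.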

Other observations

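Gene families next to the interferon-stimulated list, chosen after their values were seen, did not share 1 direction. The 3 catalytic subunits of the immunoproteasome were above 0, with PSMB8 at 10.74 in overexpression and 10.16 in knockdown, PSMB9 at 10.64 and 9.84, and PSMB10 at 9.85 and 9.29. The peptide transporter subunit TAP2 differed by 0.43 and TAP1 by -0.19. The class I heavy chains HLA-B, HLA-C and HLA-E differed by -0.18, -0.20 and -0.31, and B2M, their light chain, read 14.11 and 14.08. The membrane proteins IFITM2 and IFITM3, which hinder virus fusion, differed by 0.33 and 0.47. IFITM1 read 6.33 and 5.80, the latter under the controls, a bound of at least 1.40-fold higher. GBP1, a guanylate-binding protein, differed by 0.51 and GBP2 by 0.00. GBP3 read 6.29 and 5.82, the latter under the controls, a bound of at least 1.36-fold higher. GBP4 and GBP5 were not above the controls. Of these genes only PSMB9 was at least 1.5-fold apart.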
